A study of Mus musculus with 4 samples.

Results

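The RNA levels of genes for immune checkpoint ligands and related immune-suppressive surface proteins were examined in 4 mouse oral squamous cell carcinoma lines. The 10 genes were taken by name from the deposited expression table, which holds 34721 entries: Cd274, Pdcd1lg2, Cd276, Vtcn1, Cd80, Cd86, Lgals9, Cd47, Nt5e and Tnfrsf14. AOC3 and AOC3-LN came from mouse 3, and AOC11 and AOC11-LN came from mouse 11. Both animals were male C57BL/6 mice whose oral cavity had been exposed to the carcinogen DMBA, and LN marks the line grown from a cervical lymph node metastasis of the same animal. The labels give no treatment of the lines. Every line had been cultured, passaged under the skin of C57BL/6 mice and depleted of fibroblasts, and each was sequenced as 1 library of cultured cells. A difference between the AOC3 and AOC11 lines is therefore a difference between lines of 1 mouse and lines of 1 other mouse, and a lymph node line was compared with its primary line as 1 library against 1 library.

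Checkpoint ligands are surface proteins through which a cell restrains the immune cells that touch it. PD-L1 (Cd274) and PD-L2 (Pdcd1lg2) bind PD-1 on T cells, and the other B7 family members either restrain T cells (Cd276, Vtcn1) or give the second signal for T cell activation and also engage CTLA-4 (Cd80, Cd86). Galectin-9 (Lgals9) is a sugar-binding protein that engages TIM-3, CD47 tells macrophages through SIRP alpha not to engulf the cell, CD73 (Nt5e) converts extracellular AMP to suppressive adenosine, and HVEM (Tnfrsf14) binds BTLA and CD160. In squamous carcinomas interferon gamma is a known inducer of Cd274, and antibodies against PD-1 or PD-L1 are used as treatment.

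The libraries held an estimated 28300000 to 33900000 fragments. All 11 epithelial marker genes were at 1 FPKM or more in at least 1 line, FPKM being the fragment count scaled to transcript length and library size, and Epcam lay between 416 and 518 FPKM. Krt5 was 499, 275, 4.99 and 17.0 FPKM in AOC3, AOC3-LN, AOC11 and AOC11-LN. Trp63 was 1.69, 2.10, 0.0848 and 0.841 FPKM in the same order. Trp63 reached 1 FPKM only in the AOC3 lines, so that some difference was built into its entry. These 2 genes were past a log2 difference of 1 between the mice, beside 11.1% of all genes that reached 1 FPKM. The other 9 lay within it. Markers of other cell types were at or near 0 for the most part. Of 9 T cell markers only Trac reached 1 FPKM, and Cd3e, Cd2, Cd4 and Cd8a were listed at 0 in every line. The summed T cell marker level was 1.59 to 2.97 FPKM. Of 12 macrophage and dendritic cell markers Csf1r, Cd68 and Flt3 reached 1 FPKM, while Adgre1, C1qa and C1qb were listed at 0 and Ptprc was at most 0.0640 FPKM. Their summed level was 11.02 to 27.6 FPKM, highest in AOC11, where Csf1r alone was 20.8 FPKM. The summed B cell, endothelial and fibroblast marker levels were at most 0.527, 0.513 and 4.64 FPKM. The part of other cells in any member's level was not tested.

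The start regions of the members differed in CpG content. RefSeq windows of 300 bases, from 250 before to 50 after the RefSeq start on GRCm38.p6, were found for 9 of the 10 members. The CpG ratio of a window is the number of CG dinucleotides over the number its C and G content would give, and its median over 32851 mouse windows was 0.384. It was 0.848 for Cd276, 0.862 and 0.878 for the windows of Cd47, 0.722 for Cd274 and 0.608 for Nt5e. Lower ratios were found for Vtcn1 (0.235), Pdcd1lg2 (0.189), Cd80 (0.164), Lgals9 (0.1603) and Tnfrsf14 (0.113). The stretches of 100 bases below show this contrast for Cd47, at chr16:49855533-49855632 on the plus strand, and Lgals9, at chr11:78984947-78985046 on the minus strand. They are upstream of the RefSeq start, touch no annotated exon and read 5′ to 3′ on the strand of the gene. The Cd47 stretch lies inside the annotated Cd47 gene (chr16:49800533-49915010), which starts further upstream. CG dinucleotides are in capitals, 14 of them in Cd47 and 0 in Lgals9.
Cd47: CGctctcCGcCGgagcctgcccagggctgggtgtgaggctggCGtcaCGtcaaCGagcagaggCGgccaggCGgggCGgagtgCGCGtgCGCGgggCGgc
Lgals9: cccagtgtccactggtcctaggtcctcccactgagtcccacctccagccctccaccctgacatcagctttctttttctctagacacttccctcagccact

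The core of the interferon response element, searched as GAAANNGAA on both strands, occurred in the windows of 3 members and in 8.56% of all windows. It is shown because Cd274 is a known interferon target and because Lgals9 and Tnfrsf14 were past the fold threshold described further on in these same data. Lgals9 was past it between the mice and in AOC3-LN against AOC3. Tnfrsf14 was past it only in AOC11-LN against AOC11, and it passed the expression filter only through AOC11-LN. A part of interferon in these differences was not tested. The runs of 30 bases lie at chr19:29367352-29367381 (plus strand) for Cd274, at chr11:78984959-78984988 (minus strand) for Lgals9 and at chr4:154928121-154928150 (minus strand) for Tnfrsf14. Capitals mark the match, which in all 3 genes reads on the strand opposite to the gene.
Cd274: actgggtggcTTCGGTTTCacagacagcgg
Lgals9: gacatcagctTTCTTTTTCtctagacactt
Tnfrsf14: tattttttctTTCATTTTCacttttccttg

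The Cd274 match ran from base -76 to base -68, counted back from the RefSeq start, and lay in an exon of Plgrkt, the gene that runs away from Cd274 on the other strand. The Tnfrsf14 match lay in an exon of a Tnfrsf14 transcript that starts further upstream. Lgals9 held a further match from base 17 to base 25 after its start. The interferon gamma activated site (TTCNNNGAA, 8.30% of all windows) was matched in no member. An AP-1 site (TGANTCA, 7.81% of windows) was found in Vtcn1 and Cd80, the hypoxia response core (ACGTG, 19.6%) in Cd274 and Cd47, and an NF-kappaB consensus (8.46%) in Pdcd1lg2. Cd276 and Nt5e matched none of these. These are letter matches in 1 window per start and not measured binding.

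The RNA of both PD-1 ligands was low. These values are RNA levels in cultured cells and do not give the protein at the cell surface or in tumors. In such bulk libraries fewer cells that express a gene and less RNA of it per cell cannot be told apart. Cd274 (ENSMUSG00000016496.7, chr19:29367455-29388095, plus strand) was 0.464 FPKM in AOC3 and 0.397 FPKM in AOC3-LN, against 0.790 FPKM in AOC11 and 0.898 FPKM in AOC11-LN. It was under 1 FPKM in all 4 lines and so was not among the genes tested. Both AOC11 lines were higher than both AOC3 lines, an order that 30.5% of all genes tested also showed. Cd274 ranked above 42.3% to 45.3% of protein-coding entries, a number that includes the many entries at 0. Pdcd1lg2 (chr19:29410919-29471161) was listed at 0 in every line, where 3 fragments on its longest transcript would have given 0.0569 to 0.0674 FPKM.

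Since Cd274 has 1 annotated transcript of 3622 bases, its fragments could be estimated from FPKM, length and library depth. They came to 54 in AOC3 and 39 in AOC3-LN, against 92 in AOC11 and 101 in AOC11-LN. The level in the AOC11 lines as a pair was 1.95 times that in the AOC3 lines, with an exact 95% interval of 1.51 to 2.52 that covers counting error only and compares these libraries. AOC3-LN had 0.857 times the level of AOC3 (0.553 to 1.32) and AOC11-LN had 1.14 times that of AOC11 (0.849 to 1.53). Neither lymph node line could be told from its primary line at this depth. After quantile normalization the lymph node differences changed sign, to a log2 difference of 0.02 for AOC3-LN minus AOC3 and -0.21 for AOC11-LN minus AOC11, against -0.07 and 0.08 without it. No direction is therefore given for them. The difference of the AOC3 lines minus the AOC11 lines was -0.34 with that normalization and -0.37 without it. In the limma fit with no expression filter its adjusted p was 0.572.

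**Figure D1:**
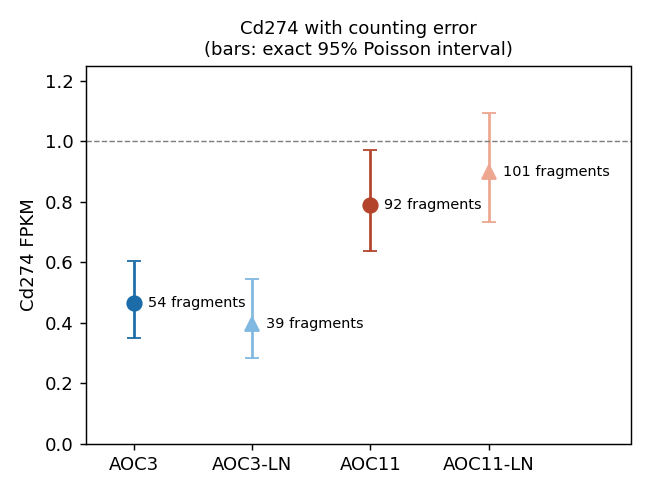
Cd274 level in FPKM in each line (1 library each), with exact 95% Poisson intervals of the estimated fragments as bars and the estimated fragments written beside each point. The AOC3 and AOC3-LN points (54 and 39 fragments) lie under the AOC11 and AOC11-LN points (92 and 101 fragments), and the dashed line marks 1 FPKM.

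Among the other B7 family members Cd276 stood alone. Cd276, or B7-H3 (ENSMUSG00000035914.11, chr9:58524298-58555437, minus strand), was 29.5 FPKM in AOC3 and 16.4 FPKM in AOC3-LN, against 33.6 FPKM in AOC11 and 34.5 FPKM in AOC11-LN. AOC3-LN was the low line and the other three lay close together. Cd276 ranked above 75.1% to 85.2% of protein-coding entries. Vtcn1, or B7-H4, was 0.109, 0, 0.145 and 0.200 FPKM in AOC3, AOC3-LN, AOC11 and AOC11-LN, which on its single transcript of 2622 bases came to 9, 0, 12 and 16 fragments. The count of 0 in AOC3-LN allows up to 0.0430 FPKM, the level of 3 fragments. Cd80 was 0.0493 FPKM in AOC3 and 0.0136 FPKM in AOC3-LN, against 0.0195 FPKM in AOC11 and 0.00255 FPKM in AOC11-LN, at most 5 fragments in a library. Cd86 was listed at 0 in all 4 lines, where 3 fragments on its longest transcript would have given 0.0375 to 0.0445 FPKM. Both ligands of CD28 and CTLA-4 were thus at or near the limit of these libraries.

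Among the other inhibitory surface molecules, Cd47 and Nt5e were expressed at similar levels in most lines. Cd47 (ENSMUSG00000055447.19, chr16:49800533-49915010, plus strand) was 26.2 FPKM in AOC3 and 13.0 FPKM in AOC3-LN, against 26.8 FPKM in AOC11 and 24.6 FPKM in AOC11-LN. As for Cd276, AOC3-LN was the low line. Nt5e, which encodes CD73 (ENSMUSG00000032420.8, chr9:88327197-88372092, plus strand), was 24.4 FPKM in AOC3 and 34.9 FPKM in AOC3-LN, against 30.1 FPKM in AOC11 and 32.6 FPKM in AOC11-LN. Here AOC3 was the low line and AOC3-LN the high one, and the highest level was 1.43 times the lowest.

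Lgals9 differed most between the lines in absolute level. It (ENSMUSG00000001123.15, chr11:78962974-78984946, minus strand) was 3.82 FPKM in AOC3 and 0.768 FPKM in AOC3-LN, against 26.0 FPKM in AOC11 and 20.1 FPKM in AOC11-LN. Both AOC11 lines were well above both AOC3 lines, and the highest level was 33.8 times the lowest. Tnfrsf14 (ENSMUSG00000042333.16, chr4:154921933-154928563, minus strand) was 0.0564 FPKM in AOC3 and 0 FPKM in AOC3-LN, against 0.234 FPKM in AOC11 and 2.13 FPKM in AOC11-LN. Only AOC11-LN passed 1 FPKM. On the longest of its 5 transcripts these levels come to at most 2, 0, 8 and 70 fragments, and 0 allows up to 0.104 FPKM in AOC3-LN.

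Per kilobase, the order of the levels was Cd276, Cd47, Nt5e and Lgals9 in AOC3, Nt5e, Cd276, Cd47 and Lgals9 in AOC3-LN, and Cd276, Nt5e, Cd47 and Lgals9 in both AOC11 lines. These 4 genes made up 97.2% to 99.4% of the summed FPKM of the 10 members. Cd274 came next in 3 lines and came after Tnfrsf14 in AOC11-LN. With 1 library a line there is no replicate spread to separate neighbours in this order. In AOC3, Cd47 and Nt5e differed by 26.2 against 24.4 FPKM, and in AOC11-LN, Cd276 and Nt5e differed by 34.5 against 32.6 FPKM. In the plot of the members by line Cd276, Cd47 and Nt5e are high throughout, and Lgals9 lies within their range in the AOC11 lines and under it in the AOC3 lines.

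**Figure D2:**
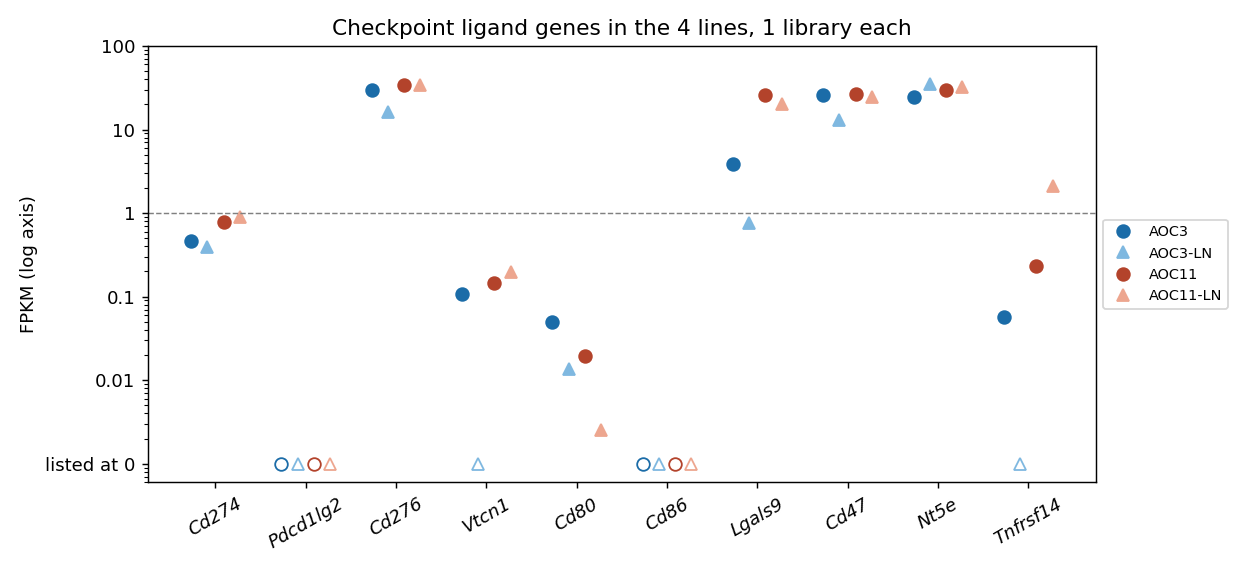
FPKM on a log axis for the 10 members in the 4 lines, 1 library each (blue AOC3, light blue AOC3-LN, red AOC11, light red AOC11-LN, triangles for lymph node lines), with open symbols for genes listed at 0 and a dashed line at 1 FPKM. Cd276, Cd47 and Nt5e lie between 13.0 and 34.9 FPKM in every line, Lgals9 spans 0.768 to 26.0 FPKM, and Pdcd1lg2 and Cd86 are at 0.

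In the comparison of the AOC3 lines with the AOC11 lines, values were log2(FPKM + 1) after quantile normalization, and 14165 entries at 1 FPKM or more in at least 1 line were tested. Of the 10 members 5 were among them: Cd276, Lgals9, Cd47, Nt5e and Tnfrsf14, the last of them only through AOC11-LN, so that some difference was built into its entry. A log2 difference above 1 or below -1 counted as past the threshold. Of the 5 members 1 was past it, Lgals9, beside 11.1% of all genes tested, 5.1% being higher in the AOC3 lines and 6% higher in the AOC11 lines. The mean level of Lgals9 was 2.29 FPKM in the AOC3 lines and 23.0 FPKM in the AOC11 lines, 10.04 times higher. This fold was 29.98 without AOC3 and 6.03 without AOC3-LN. Its log2 difference was -2.97 ± 0.48, lower than that of all but 0.332% of the genes tested. The SE here and below is the moderated SE of limma for 2 lines against 2. It is drawn toward a trend over all genes and is not the spread of this gene alone.

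The limma test across all genes, in which the lines of a mouse stand in for replicates, called 0 of the 5 members at an adjusted p under 0.05, beside 0.205% of all genes. Lgals9 was the 1 member of 5 with an unadjusted limma p under 0.05 (0.00162), a level that 18.7% of all genes tested reached, and its adjusted limma p was 0.0965. Over the alternative settings this adjusted limma p ranged from 0.0403, with protein-coding genes only, to 0.455, without AOC3-LN, and it was under 0.05 in 1 of 10 settings. Lgals9 is thus past the fold threshold and not called by the test.

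Differences for the other members were smaller. Cd276 gave -0.53 ± 0.29, Cd47 -0.36 ± 0.34 and Nt5e -0.04 ± 0.23 (log2 difference ± moderated SE, AOC3 lines minus AOC11 lines), with adjusted limma p of 0.398, 0.588 and 0.948. These sizes rested on AOC3-LN for the first 2 genes. Without that line the difference was -0.14 for Cd276 and 0.09 for Cd47, a turn in direction. Tnfrsf14 gave -0.89 ± 0.45 with an adjusted limma p of 0.362, and a pseudocount of 0.1 in place of 1 moved it to -2.78. Without AOC11-LN its difference was -0.33.

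AOC3-LN and AOC3 were compared to ask how the checkpoint ligands of a lymph node line relate to those of its primary line in mouse 3. Of the 5 members 1 was past the threshold, beside 5.53% of all genes. Lgals9 was 4.97 times lower in AOC3-LN, with a log2 difference of -1.33. Cd47 was 2.02 times lower (-0.91 on the log2 scale) and Cd276 1.80 times lower (-0.77), and neither was past the threshold. Nt5e went the other way, 1.43 times higher in AOC3-LN (0.50). Of the genes tested, 4.11% had a lower difference than Cd47 and 5.37% a lower one than Cd276. The Tnfrsf14 levels of both lines were under the level of 3 fragments, and no fold is given.

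AOC11-LN and AOC11 gave a different picture. Of the 5 members 1 was past the threshold, beside 8.11% of all genes, and it was Tnfrsf14, which is the member that passed the filter only through AOC11-LN. It was 9.10 times higher in AOC11-LN, with a log2 difference of 1.12, on at most 70 against 8 fragments. Lgals9 was 1.30 times lower in AOC11-LN (-0.34), Cd47 gave -0.09, Cd276 0.05 and Nt5e 0.14. Apart from Tnfrsf14, the members that passed differed less in mouse 11 than in mouse 3. The limma fit over both mice, with mouse as a block and 1 residual degree of freedom, called 0 of the 5 members between lymph node and primary lines, beside 0.0141% of all genes. No member had an unadjusted limma p under 0.05 in it, beside 2.86% of all genes, and Lgals9 had the lowest, 0.0639.

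**Figure D3:**
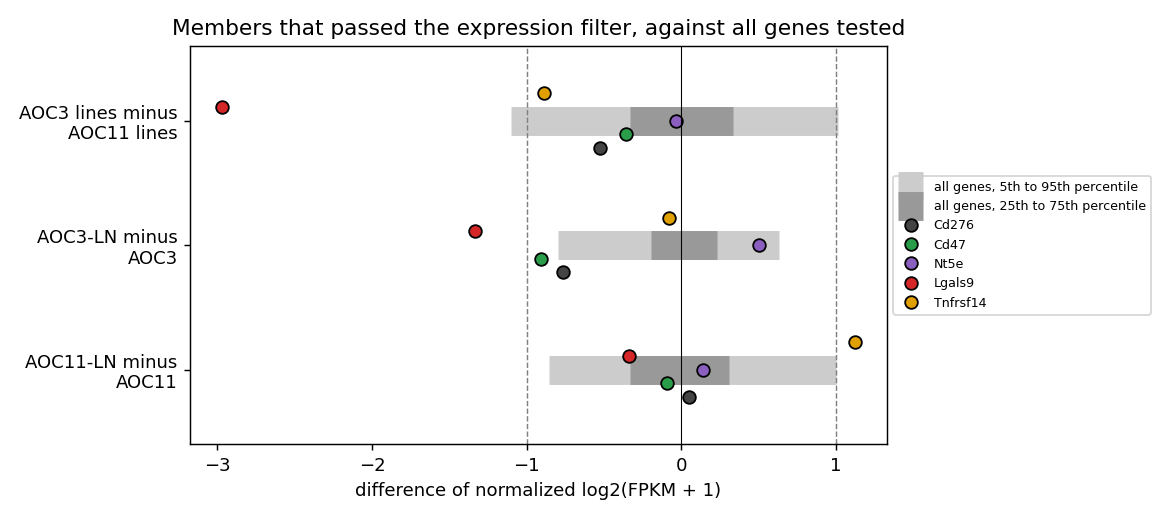
Differences of normalized log2(FPKM + 1) for the 5 members that passed the filter (coloured points) in the 3 comparisons, over the 5th to 95th percentile (light bar) and 25th to 75th percentile (dark bar) of the 14165 genes tested. Lgals9 lies at -2.97 between mice and -1.33 in AOC3-LN, and Tnfrsf14 at 1.12 in AOC11-LN, past the dashed lines at -1 and 1.

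The genes whose profile over the 4 lines was nearest to each member were found by the root mean square difference of centred log2 values, over 11379 other protein-coding genes. For Lgals9 they were Ddah2 (0.08), Map6 (0.08) and AA467197 (0.14), and only 2 genes lay within 0.1. Ddah2 was 6.11, 1.43, 41.9 and 32.3 FPKM in AOC3, AOC3-LN, AOC11 and AOC11-LN, high in the same lines as Lgals9. Cd276 was nearest to Plxnb2 (0.03), Itm2b (0.03) and Nuak2 (0.04), with 34 genes within 0.1. Cd47 was nearest to Prkcd (0.03), Rgl3 (0.06) and Rnf141 (0.06), with 15 such genes. Nt5e was nearest to Nmt2 (0.02), Cltb (0.03) and Pomgnt1 (0.03), with 174, as its profile was nearly flat. Tnfrsf14 was nearest to Map1lc3a (0.02), Skap2 (0.04) and Gramd1a (0.05), with 18. For Tnfrsf14 this nearness depends on the 1 added to FPKM before the log, which flattens low levels. Tnfrsf14 was 0.0564, 0, 0.234 and 2.13 FPKM and Map1lc3a 19.9, 18.2, 26.0 and 58.1 FPKM, so their folds are not alike. Likeness over 4 libraries is a description and has no test.

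Cd274 and Pdcd1lg2 lie side by side on chromosome 19, and the genes around them were read in the same lines. Plgrkt, which encodes a plasminogen receptor, starts 65 bases from Cd274 on the other strand and was 13.2, 13.9, 21.9 and 33.7 FPKM in AOC3, AOC3-LN, AOC11 and AOC11-LN. It was thus higher in both AOC11 lines, as Cd274 was, at a level far above it. Insl6, a relaxin family gene further out, was 3.92, 0.639, 4.69 and 30.9 FPKM, high in AOC11-LN alone. On the other side Ric1 lay between 5.62 and 7.30 FPKM and Ermp1 between 13.4 and 21.04 FPKM. Insl6 and Ermp1, like Plgrkt, were higher in both AOC11 lines than in both AOC3 lines, and Ric1 was lower. Of all genes tested, 30.5% were higher in both AOC11 lines. Rln1 was listed at 0 in all lines and Mlana in 3 of them. Pdcd1lg2, listed at 0, thus had the expressed genes Ric1 and Ermp1 on its far side.

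**Figure D4:**
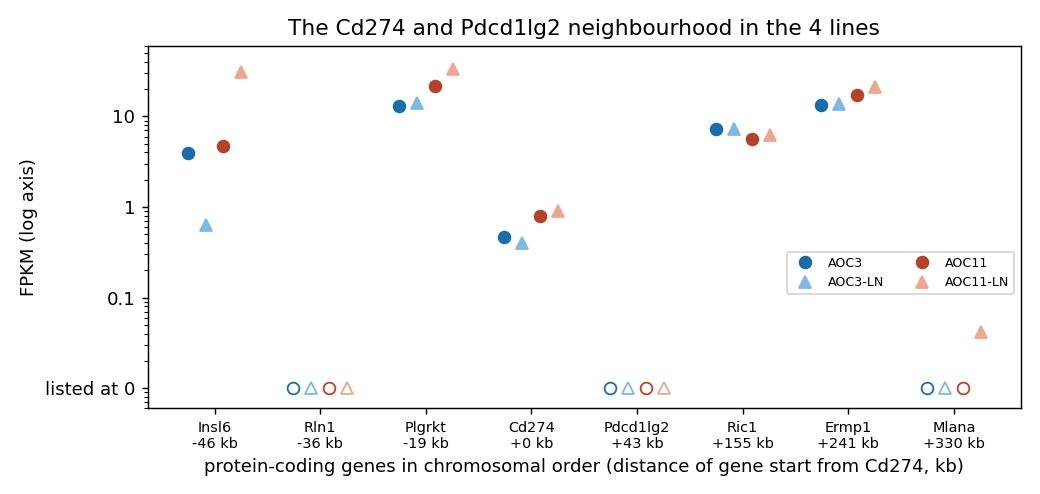
FPKM on a log axis in the 4 lines for the protein-coding genes around Cd274 and Pdcd1lg2, in chromosomal order with the distance of each gene start from that of Cd274 in kilobases, and open symbols for genes listed at 0. Cd274 stays under 1 FPKM and Pdcd1lg2 at 0, between Plgrkt at 13.2 to 33.7 FPKM and Ric1 at 5.62 to 7.30 FPKM.

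Most genes of the interferon and JAK-STAT route that induces Cd274 were detected. Of 17 genes in that list 16 passed the filter, all but Nlrc5, at most 0.203 FPKM. Of these 3 were past the threshold between the mice (1 higher in the AOC3 lines, 2 lower), beside 11.1% of all genes tested. The median log2 difference was -0.29, beside 0.01 over all genes tested. Ifngr2, a chain of the interferon gamma receptor, was 7.27, 3.06, 17.4 and 11.7 FPKM in AOC3, AOC3-LN, AOC11 and AOC11-LN (-1.30). Irf9, a transcription factor of the type I interferon response, gave -1.13, and Socs3, a feedback inhibitor of JAK signalling, gave 1.19. Irf1, the factor through which interferon gamma acts on Cd274, was 68.1, 21.1, 66.9 and 96.5 FPKM in the same order of lines. AOC3-LN was the lowest line for Irf1, and AOC3 and AOC11 had nearly equal Irf1 beside a Cd274 level of 0.464 against 0.790 FPKM. These are single libraries, and whether Irf1 acts on Cd274 in these lines was not tested. None of the 16 genes was called by limma, the lowest adjusted p being 0.149.

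Other transcriptional inputs to Cd274 were all detected. All 14 genes passed, with a median of 0.23. Of these 4 were past the threshold between the mice (1 higher in the AOC3 lines, 3 lower), beside 11.1% of all genes. The 3 encode NF-kappaB subunits: Relb (7.27, 5.32, 22.1 and 21.7 FPKM, -1.59), Nfkb1 (-1.33) and Nfkb2 (-1.05). A further subunit gene, Rela, gave -0.43. The 1 was Fosl1, an AP-1 factor, at 39.0, 84.1, 15.98 and 19.3 FPKM (1.70), while the AP-1 gene Jun gave 0.51. Rela and Jun were added to the named genes after their values were seen. Myc was the most abundant, at up to 164 FPKM. Of 16 genes that mature, stabilise or degrade the PD-L1 protein, all 16 passed. None was past the threshold in the 3 comparisons, where 11.1%, 5.53% and 8.11% of all genes were, with a median of 0.15 and a range of -0.45 to 0.50 between the mice. Cmtm6, which keeps PD-L1 at the cell surface, was 21.2, 19.1, 21.3 and 18.9 FPKM, and Stt3a, which adds sugars to new proteins, reached 123 FPKM. Btrc, a ubiquitin ligase gene, still spanned 7.16 to 15.7 FPKM. For both lists limma called 0 genes, with lowest adjusted p of 0.0799 and 0.283.

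Partners of the other members were read in the same way. Of 9 genes in the galectin list, which includes Lgals3bp for a galectin-binding protein, 7 passed. Lgals9 was among them, and 4 were higher in the AOC11 lines. Leaving Lgals9 out, 3 of 6 were higher, beside 6% of all genes, with a median of -0.94. The 3 were Lgals3bp, which is not itself a galectin (0.646, 0.188, 3.14 and 10.1 FPKM, -2.29), Lgals7 (-2.09) and Lgals1 (-1.32). Of these Lgals3bp and Lgals7 passed the filter only through the AOC11 lines, so that some difference was built into their entry. Only Lgals1 is thus a galectin whose entry did not depend on the AOC11 lines, and the share of 3 in 6 is not read as a result. Lgals1 was the most abundant, at 1004 FPKM in AOC3-LN and 3864 FPKM in AOC11-LN. Limma called 0 of the 7, with a lowest adjusted p of 0.0965, that of Lgals9. Havcr2, the TIM-3 receptor of galectin-9, was at most 0.251 FPKM.

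In the CD47 axis 7 of 11 genes passed, with a median of 0.07. Of these 1 was past the threshold between the mice, beside 11.1% of all genes. It was Cd24a, another signal that restrains macrophages, at 124, 119, 46.9 and 44.6 FPKM (1.43, adjusted limma p 0.0636). Thbs1, which encodes the CD47 ligand thrombospondin-1, was 180 to 417 FPKM. Qpctl, the enzyme that modifies CD47 for SIRP alpha binding, was 3.75 to 5.21 FPKM. Sirpa itself was 0.774 FPKM in AOC3 and at most 0.1605 FPKM elsewhere.

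In the adenosine pathway 12 of 21 genes passed, with a median of -0.14. Past the threshold were 2, both higher in the AOC11 lines, beside 6% of all genes. Entpd1, or CD39, which makes the AMP that CD73 uses, was 0.277, 0.736, 0.134 and 0.112 FPKM, under 1 in all lines where Nt5e was 24.4 or more. Entpd3, another enzyme that hydrolyses extracellular ATP and ADP, was 46.6, 33.0, 15.2 and 26.5 FPKM (0.998, just inside the threshold). Ada, which breaks adenosine down, was 1.40, 0.829, 7.07 and 9.79 FPKM (-2.12, adjusted limma p 0.0796). Bst1 gave -1.34, and the adenosine receptor gene Adora2b, which passed only through the AOC3 lines, gave 0.95.

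In the HVEM axis 5 of 10 genes passed, with a median of -0.64. Of these 2 were higher in the AOC11 lines, beside 6% of all genes. Ltbr, the lymphotoxin beta receptor, was 27.6, 26.7, 54.1 and 65.6 FPKM (-1.04), and Cd5, which passed only through the AOC11 lines, was 0.217, 0.0498, 3.47 and 1.47 FPKM (-1.48). The HVEM ligand Tnfsf14 was listed at 0 in all lines, and its partners Btla and Cd160 were at most 0.0114 and 0.0460 FPKM.

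**Figure D5:**
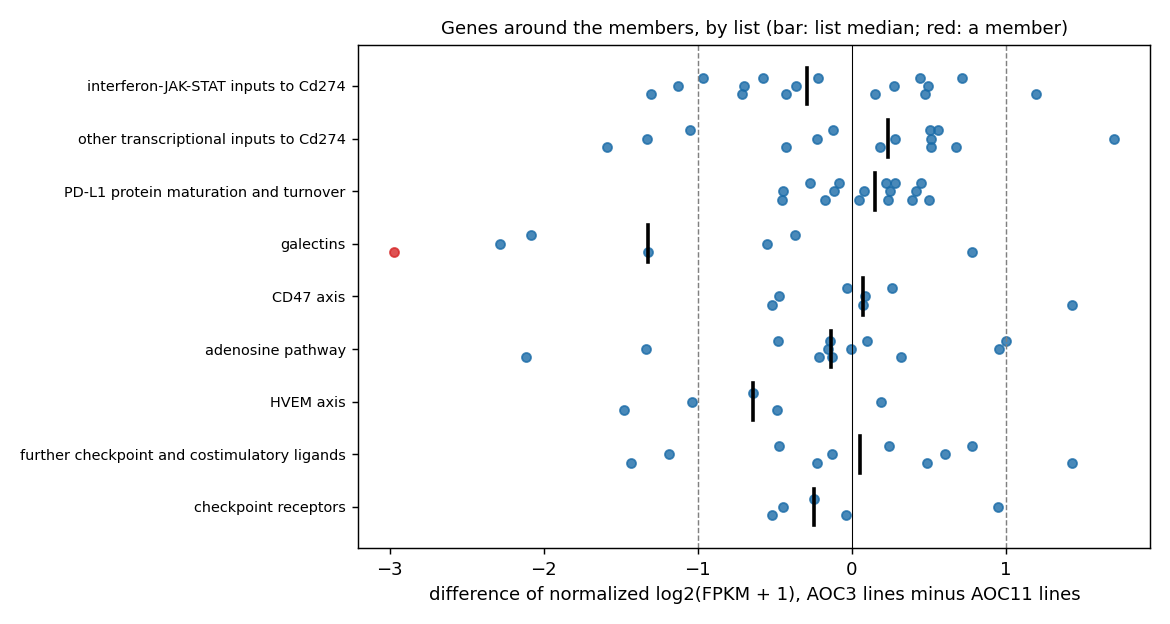
Differences of normalized log2(FPKM + 1), AOC3 lines minus AOC11 lines, for every gene that passed the filter in 9 lists around the members (points, Lgals9 in red), with the list median as a bar and dashed lines at -1 and 1. The median of the galectin list, which includes Lgals3bp, lies at -1.32 with Lgals9 and the PD-L1 maturation genes all lie between -0.45 and 0.50.

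Of 26 further checkpoint and costimulatory ligand genes 25 had an entry and 10 passed, with a median of 0.05. Of these 1 was higher in the AOC3 lines, beside 5.1% of all genes, and 2 were higher in the AOC11 lines, beside 6%. Nectin2, a ligand of TIGIT and CD226, was 39.6, 15.6, 67.2 and 78.2 FPKM (-1.43), and Nectin4 was 4.94, 0.829, 5.80 and 7.98 FPKM (-1.19). Both were lowest in AOC3-LN. Of the members, Cd276, Cd47 and Lgals9 were also lowest there, while Nt5e was highest there. The share of all genes that were lowest in AOC3-LN was not counted, so this is not read as a shared pattern. Hmgb1 was the most abundant, at up to 748 FPKM. Of 12 soluble and metabolic suppressor genes 7 passed. In each pair of lines 1 of these was higher, beside 5.1% of all genes for the AOC3 lines and 6% for the AOC11 lines. Arg1, an arginine-consuming enzyme that passed only through the AOC11 lines, was 0.461, 0.721, 7.77 and 5.61 FPKM (-2.19, adjusted limma p 0.0848), and Ptges, which makes prostaglandin E2, was 25.2, 6.89, 1.63 and 14.2 FPKM (1.21).

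PD-1, CTLA-4 and CD28, the T cell partners of the B7 members, were at or near 0 in these cultured lines. Pdcd1 and Ctla4 were at most 0.0169 FPKM, each above 0 in AOC11 alone, and Cd28 was at most 0.0992 FPKM. Of 18 checkpoint receptor genes 5 passed and 0 were past the threshold between the mice, beside 11.1% of all genes. Siglecg was 2.90, 0.891, 6.90 and 1.26 FPKM and Tnfrsf9 1.38 to 3.76 FPKM. Tigit was the highest of them, at 18.3, 83.4, 27.1 and 15.7 FPKM in AOC3, AOC3-LN, AOC11 and AOC11-LN. It was highest in AOC3-LN, with a log2 difference of 2.12 from AOC3, while Cd3e, Cd2, Cd4 and Cd8a were at 0 in that line and all others. The table gives no read positions, so whether these reads cover its coding exons was not tested.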

How the data were processed

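RNA of the 4 cultured lines was made into stranded mRNA libraries and sequenced as paired-end reads. According to the submitters' processing notes and the study's methods, the authors trimmed reads with Trim Galore, mapped them to mm10 with TopHat2 and quantified genes with Cufflinks and GENCODE M21. Versions are not given in the sources used here. The deposited table holds FPKM values per entry and line, which the authors had not log-transformed or normalized further. Whether strand was used in counting is not stated. Entries that overlap a member on the opposite strand were at most 0.0994 FPKM for Cd274 and Pdcd1lg2 and 1.19 to 2.12 FPKM (Gm10657) for Cd276.

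Symbols and positions (1-based, GRCm38) came from the GENCODE M21 annotation, to which all 34721 entries matched. The table gives no counts, so depth was estimated from the steps of low values in 9528 genes with 1 transcript. Of the low values, 70.9% to 74.7% came out whole within 0.1 fragment, against 20% by chance, so fragments and their exact 95% Poisson or binomial intervals are estimates that cover counting error only. A gene listed at 0 was given a limit of 3 fragments.

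Values were transformed to log2(FPKM + 1) and quantile-normalized over all entries. Entries at 1 FPKM or more in at least 1 line were tested with limma 3.58.1 in R 4.3.3 (moderated test with trend, Benjamini-Hochberg over all 14165). The code was first checked on simulated independent lines with the same set spread for every gene. That check does not show how the test behaves on lines of the same mouse. A log2 difference above 1 or below -1 counted as past the fold threshold, and an adjusted p under 0.05 as called. Each line is 1 library and each group 1 mouse, so p-values measure only the spread between these lines. The alternatives were another pseudocount, no quantile normalization, scaling by the median, other expression filters, a 1.5-fold threshold, protein-coding genes only, a site or mouse block, and leaving out each line.

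The members and gene lists were chosen with earlier results of these data known. All 10 members are named. From each list the 4 genes with the largest difference between the mice may be named, with the most abundant gene, the direct partners of members and the defining markers, besides the 3 nearest profiles and the 3 neighbours on each side. Promoter windows are from RefSeq (GRCm38.p6). Cd86 had no window.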

Additional observations from a re-analysis of the deposited data

Results flagged for a closer look

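With 1 library a line, no group was large enough to look for a sample apart from the others. For some genes the lymph node line differed from its primary line in opposite directions in the 2 mice, and this difference between mice was not tested. Values are log2 differences, lymph node minus primary line, and the gap is mouse 11 minus mouse 3. The genes given are not all that went in opposite directions. Entpd3, at -0.49 in mouse 3 and 0.79 in mouse 11, is 1 of those left out. The share of all genes that did so was not counted.

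Among the members, Cd276 gave -0.77 in mouse 3 and 0.05 in mouse 11, a gap of 0.81. Tnfrsf14 gave -0.08 and 1.12, a gap of 1.20, on levels near the limit of the library in 3 of the 4 lines. Cd274 gave 0.02 and -0.21, a gap of -0.22, and both signs turned without quantile normalization.

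Among the genes around them, Tigit had a gap of -2.86, being higher in AOC3-LN (2.12) and lower in AOC11-LN (-0.74). Irf1 had a gap of 2.14 (-1.65 and 0.50), and the TIGIT ligand Nectin2 and its relative Nectin4 had gaps of 1.44 (-1.23 and 0.21) and 1.98 (-1.60 and 0.38). Ptges had the largest gap of the genes listed here, 4.07 (-1.68 and 2.39). The galectin genes Lgals1 and Lgals7 and the galectin-binding protein gene Lgals3bp had gaps of 1.19, 1.12 and 1.75. Of the marker genes, Krt5 had a gap of 2.46 and Postn one of 1.17.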

How the results depend on the processing

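Of 86 alternative values for the members' log2 differences, 85 moved by less than the spread between lines of a mouse or stayed on the same side of the threshold, and 1 did not. A value that turned in sign or crossed the threshold could still count among the 85. Between the mice, Cd47 went from -0.36 to 0.09 without AOC3-LN, and Tnfrsf14 from -0.89 to -1.45 without AOC11. The 1 was Tnfrsf14 between the mice, at -2.78 with a pseudocount of 0.1. That pseudocount put 2 members past the threshold between the mice (Lgals9 and Tnfrsf14), and so did a 1.5-fold threshold (2). Leaving out 1 line at a time gave 1 to 2 members, the second being Tnfrsf14 without AOC11. In AOC3-LN against AOC3 the 1.5-fold threshold gave 3 members, and in AOC11-LN against AOC11 a filter of 5 FPKM left 0, since it removed Tnfrsf14. Over all genes, the pseudocount of 0.1 gave 2627, 1443 and 2074 genes past the threshold between the mice, in AOC3-LN and in AOC11-LN, in place of 1573, 783 and 1149, and the 1.5-fold threshold gave 3814, 1948 and 3482. Without 1 line the number between the mice was 1456 to 1956. Limma called 29 genes between the mice, but 0 with no filter, 50 with a filter of 5 FPKM and 256 with protein-coding genes only. Without any 1 line it called 0 genes, where the lone line is assumed to vary like the others. Between lymph node and primary lines it called 2 genes, and 0 with no filter and 0 with protein-coding genes only. With 405 genes (2.86%) at an unadjusted limma p under 0.05, this comparison has 1 residual degree of freedom. Site as a replicate block gave 31 genes between the mice and an adjusted limma p of 0.0754 for Lgals9. Leaving mouse out as a block between sites gave 2 genes, and no member was called in either fit. Depth limits Cd274, Vtcn1, Cd80 and Tnfrsf14, and with 1 library a line no difference has a replicate check.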
